A study of Saccharomyces cerevisiae with 4 samples.

Results

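The 10 genes described here encode enzymes of the mitochondrial citric acid cycle of the yeast *Saccharomyces cerevisiae*: CIT1, ACO1, IDH1, IDH2, KGD1, KGD2, LSC1, LSC2, FUM1 and MDH1. They were chosen by name, with earlier results of these data known, and all 10 were found among the 5816 genes of the deposited count tables. RNA was sequenced from 2 libraries of a strain with CHD1 deleted and 2 libraries of wild-type cells. CHD1 encodes a chromatin-remodelling ATPase that moves nucleosomes over transcribed genes. Both strains were of the BY4741 background, a haploid laboratory strain of mating type a, and carried no other labelled alteration. Both were grown in YPD, a rich medium with glucose, at 30 °C, and were harvested in mid-log phase at an optical density of 0.6 to 0.8. The labels do not say whether replicates were separate cultures or whether the deletion strain was a single clone. The p-values therefore measure the spread between these libraries, which may be technical.

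The cycle oxidises acetyl-CoA to carbon dioxide and hands the electrons to the respiratory chain, and it also supplies 2-oxoglutarate for glutamate synthesis. Yeast fermenting glucose hold many of its genes at reduced levels, through glucose repression and through low activity of the HAP complex. That complex is an activator that binds CCAAT sequences, and its limiting activator subunit is Hap4. A second route, the retrograde pathway, acts through Rtg1 and Rtg3 at GTCAC sequences and keeps the first enzymes of the cycle expressed when respiration fails.

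Short windows around these motifs are shown for the genes on which the results turn, LSC2, which changed, and CIT1, IDH1, IDH2 and FUM1, which carry a CCAAT sequence and lie at other steps. Each is 29 bases, written 5′ to 3′ on the strand of the gene, and the capitals mark the motif, which may be on either strand, so that CCAAT can read ATTGG and a GTCAC sequence can read GTGAC in the printed strand.
CIT1: tacttttgtgttATTGGaggatcgcaatc
IDH1: ttcttccgcttcATTGGcttattcttgat
IDH2: gtgcatgacattATTGGatacactttttc
FUM1: gggcgttcgatgATTGGctctttcctgta
LSC2: cgaaaaataacaGTGACtatagagcgata
The windows were read from RefSeq's R64 assembly, the same genome sequence as the sacCer3 build of the files. They lie at chrXIV:631338-631366 on the minus strand for CIT1, chrXIV:559130-559158 on the minus strand for IDH1, chrXV:580149-580177 on the plus strand for IDH2, chrXVI:47045-47073 on the plus strand for FUM1 and chrVII:979417-979445 on the minus strand for LSC2. A CCAAT sequence on either strand was present within 500 bases before the start codon of 8 of the 10 genes, and the genes without one in that window were LSC1 and LSC2. Over all 5808 upstream windows of that length, 62.8% held it. A GTCAC sequence was present before 6 of the 10 genes, CIT1, ACO1, IDH1, KGD1, LSC2 and FUM1, against 42.4% of all windows. These matches describe the letters in the window and do not show binding.

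The libraries held 4117998 and 2597514 gene reads in the deletion, against 2145684 and 2824770 in wild type. CHD1 itself was counted 7 and 3 times in the deletion libraries, against 211 and 396 times in wild-type libraries. The a-cell receptor gene STE2 was counted 1083 to 2588 times per library and the alpha-factor gene MF(ALPHA)1 at most 1 time, which matches the mating type. Other alpha-cell genes had a few reads. STE3 had 14 and 7 in the deletion and 3 and 7 in wild type. MF(ALPHA)2 had 13 and 9 in the deletion and 0 and 5 in wild type. Among a-cell genes, MFA2 was called higher in the deletion by edgeR (log2 fold change 0.48, adjusted p = 0.0481), while STE2, MFA1 and BAR1 were not called. Of the genes deleted from BY4741, MET17 had 0 reads and LEU2 at most 2, while URA3 had 82 and 52 reads in the deletion and 29 and 43 in wild type. HIS3, of which BY4741 lacks only a part, had 104 and 79 reads in the deletion and 69 and 99 in wild type. The URA3 reads go against the strain label in both genotypes, and the sources used here do not account for them. Across 5488 genes tested with edgeR's quasi-likelihood test, 92 were higher (1.68%) and 168 lower (3.06%) in the deletion at an adjusted p under 0.05, 4.74% in all. With total gene counts as the scale, this split was 176 higher and 65 lower and the median over all genes was 0.11, against 0.0044 with TMM.

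In the cells without CHD1, 1 of the 10 cycle genes passed the test, beside 4.74% of all genes tested. LSC2, which encodes the beta subunit of succinyl-CoA ligase, rose 1.42-fold (95% interval 1.18 to 1.71). None of the other 9 passed in either direction in that fit, and their log2 fold changes ran from -0.40 for CIT1 to 0.26 for LSC1. A change of 2-fold in either direction lay outside the 95% interval of every one of the 10 genes. Smaller changes were not excluded, as the intervals reached -0.69 for CIT1, -0.57 for FUM1 and 0.52 for LSC1 on the log2 scale. The median log2 fold change of the 10 was -0.083, against 0.0044 over all genes tested, and 4 were above 0 and 6 below, of which IDH2 lay above 0 with total gene counts as the scale, and MDH1 too once genes overlapping ribosomal RNA were left out of the total. All values are relative to the RNA of the library, so a change in the amount of RNA per cell cannot be told apart from no change. All 10 passed the filter on low counts, with 110 to 1505 reads per gene and library.

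**Figure D1:**
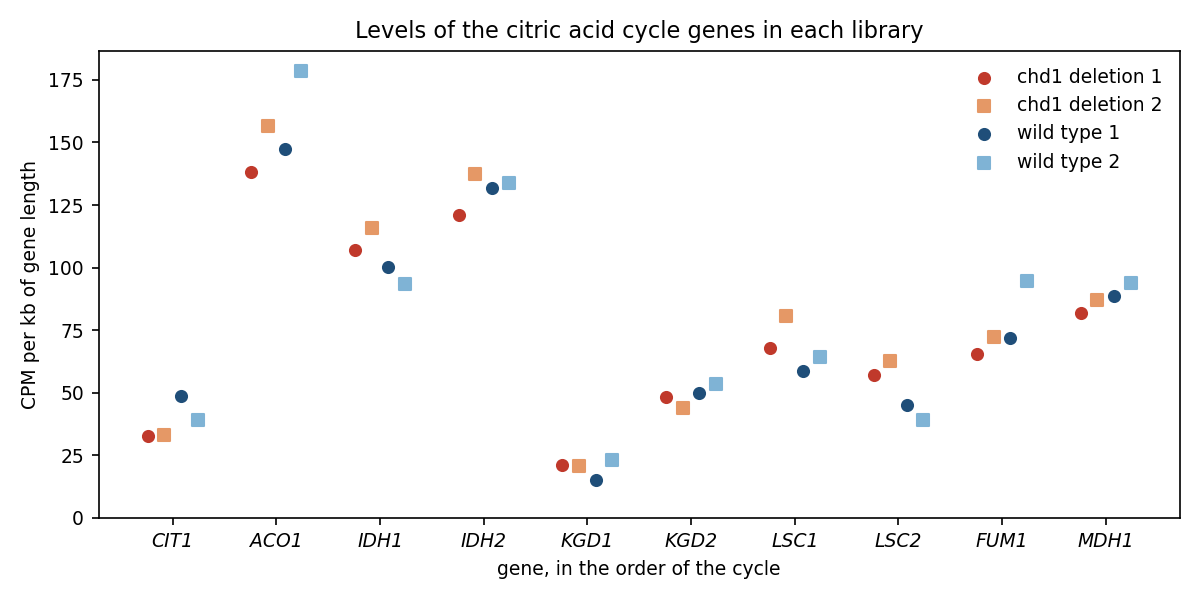
Level of each gene in each library, in CPM on TMM-scaled libraries divided by the gene length in kb, with genes in the order of the cycle and 1 point per library. ACO1 and IDH2 are the highest in every library and KGD1 the lowest, and both LSC2 points of the deletion lie above both of wild type.

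Levels per length differed widely among the 10 genes and kept much the same order in both genotypes. ACO1, which encodes aconitase, was the highest, at 147 ± 12.8 CPM (counts per 1e6 reads) per kb in the deletion and 163 ± 21.9 CPM per kb in wild type (SD, n = 2 each, as for all levels here). IDH2 followed at 129 ± 11.5 CPM per kb in the deletion and 133 ± 1.40 CPM per kb in wild type. KGD1 was the lowest, at 20.8 ± 0.263 CPM per kb in the deletion and 19.2 ± 5.63 CPM per kb in wild type. In the deletion the order was ACO1, IDH2, IDH1, MDH1, LSC1, FUM1, LSC2, KGD2, CIT1 and KGD1, and the only neighbours whose libraries overlapped were LSC1 and FUM1. In wild type FUM1 stood before LSC1, and KGD2 and CIT1 before LSC2, which was ninth of the 10. There IDH1 overlapped MDH1, MDH1 overlapped FUM1, and CIT1 overlapped LSC2. LSC2 was seventh in the deletion.

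The 10 genes together took 5457 and 3706 reads in the deletion libraries, against 2629 and 3969 in the wild-type libraries. As a share of gene reads this was 0.133% (Wilson 95% interval 0.129% to 0.136%) and 0.143% (0.138% to 0.147%) in the deletion. In wild type it was 0.123% (0.118% to 0.127%) and 0.141% (0.136% to 0.145%). These intervals cover counting error only. The groups overlapped, and the difference of 0.00608 percentage points had a two-sided exact permutation p of 0.667, in a design of 2 libraries against 2 that cannot give a p below 0.333. The difference turned to -0.0029 percentage points when wild-type replicate 1 was left out and was 0.0151 when replicate 2 was. On TMM-scaled libraries the summed level was 1269.6 and 1384 CPM in the deletion and 1297 and 1428 CPM in wild type. The summed level of the 10 genes therefore differed by less than the spread between replicates.

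Of the enzymes that open the cycle, citrate synthase had the largest downward difference. CIT1 (YNR001C, chrXIV:629622-631061, 1 exon), which joins acetyl-CoA and oxaloacetate to citrate, had 56.1 and 56.8 CPM in the deletion, against 83.4 and 66.9 CPM in wild type. Both deletion libraries lay below both wild-type libraries, but the wild-type libraries were far apart. The log2 fold change was -0.40 ± 0.14 (SE), with a 95% interval from -0.69 to -0.11, and it did not pass the adjusted test (adjusted p = 0.101). It passed in the fit without wild-type replicate 2 (adjusted p = 0.0102) and in the fit with the replicate number as a block (adjusted p = 0.0420), the second resting on labels that share only a number. Without wild-type replicate 1, the higher of the wild-type libraries, it was -0.24 (adjusted p = 0.343).

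ACO1 (YLR304C, chrXII:735212-737548, 1 exon), whose iron-sulfur enzyme turns citrate into isocitrate, had 350.2 and 396 CPM in the deletion and 374 and 452 CPM in wild type. The groups overlapped (log2 fold change -0.15 ± 0.11, adjusted p = 0.485). Its reads made up 27.6% and 28.6% of the reads of the 10 genes in the deletion and 28.8% and 31.6% in wild type, so the summed level is weighted towards this gene.

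NAD-dependent isocitrate dehydrogenase is built of a regulatory subunit, Idh1, and a catalytic subunit, Idh2. IDH1 (YNL037C, chrXIV:557920-559002, 1 exon) had 141 and 152 CPM in the deletion, against 132 and 123 CPM in wild type, and IDH2 (YOR136W, chrXV:580250-581359, 1 exon) had 166 and 189 CPM in the deletion, against 181 and 184 CPM in wild type. The IDH1 libraries of the genotypes did not overlap and those of IDH2 did, and neither gene passed (log2 fold changes 0.20 ± 0.11 and -0.046 ± 0.11, adjusted p = 0.326 and 0.871). Within a library the scaling cancels in the ratio of the subunits' reads, which is not divided by length and serves to compare the genotypes. IDH2 had 1.18 and 1.24 reads per IDH1 read in the deletion, against 1.37 and 1.49 in wild type. The mean log2 ratio was 0.27 ± 0.047 in the deletion and 0.52 ± 0.085 in wild type, a difference of -0.24. The libraries did not overlap, and the exact permutation p was 0.333, the smallest that the design allows. The deposited length of IDH1 exceeds its coding length by 231 bases, and the gene GPI15, at 63.98 and 72.8 CPM in the deletion and 72.5 and 58.6 CPM in wild type, ends 136 bases from it on the opposite strand. Whether reads were counted by strand is not given in the sources used here, so reads of the 2 genes could be shared where their transcripts overlap.

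2-Oxoglutarate dehydrogenase turns 2-oxoglutarate into succinyl-CoA. KGD1 (YIL125W, chrIX:122689-125733, 1 exon), which encodes its decarboxylating subunit, had 74.9 and 73.6 CPM in the deletion, against 54.3 and 82.7 CPM in wild type. Both deletion libraries lay between the wild-type libraries, which were further apart relative to their mean than those of the other 9 genes, while the deletion libraries lay close together. Its log2 fold change of 0.090 ± 0.15 (adjusted p = 0.803) became -0.15 when wild-type replicate 1 was left out and 0.46 when replicate 2 was. KGD2 (YDR148C, chrIV:753675-755066, 1 exon), which encodes the succinyltransferase subunit, had 86.3 and 78.4 CPM in the deletion and 88.8 and 95.3 CPM in wild type. Its libraries did not overlap, but the difference was small (log2 fold change -0.16 ± 0.12, adjusted p = 0.511). The ratio of KGD2 to KGD1 reads was 1.15 and 1.07 in the deletion and 1.64 and 1.15 in wild type, with a mean log2 difference of -0.31 and an exact permutation p of 0.667. Leaving out wild-type replicate 1 made the difference -0.056, and leaving out replicate 2 made it -0.56. Over the 3 subunit ratios compared, the exact p adjusted by Benjamini-Hochberg was 0.5 for LSC2 over LSC1 and IDH2 over IDH1 and 0.667 for KGD2 over KGD1.

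**Figure D2:**
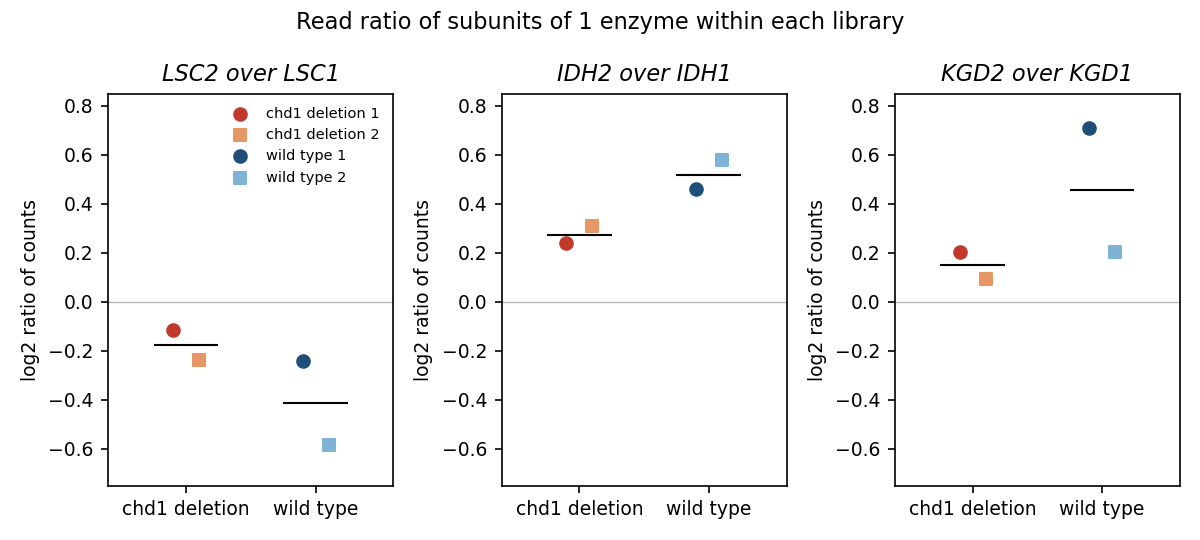
Log2 ratio of read counts of 2 subunits of 1 enzyme within each library, with deletion libraries at the left and wild-type libraries at the right of each panel, and the group mean as a line. The ratio of IDH2 to IDH1 is lower in both deletion libraries than in both wild-type libraries, and that of KGD2 to KGD1 overlaps between the genotypes.

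Succinyl-CoA ligase, which makes succinate and forms a nucleoside triphosphate directly from the substrate, had the largest upward differences among the 10 genes, while KGD4 (0.49) and SDH2 (0.38), other genes of the mitochondrial cycle that did not pass, had log2 fold changes above that of LSC1. LSC2 (YGR244C, chrVII:978036-979319, 1 exon) was counted 370 and 252 times in the deletion, against 138 and 164 times in wild type. In CPM these were 86.1 and 94.1 in the deletion, against 68.1 and 59.0 in wild type. Both deletion libraries lay above both wild-type libraries. The log2 fold change was 0.51 ± 0.13, with an adjusted p of 0.0289 over all genes tested. The gene was higher under each of 13 processing alternatives, by 0.41 to 0.65 on the log2 scale, but its call was lost in 5 of them: with DESeq2 (adjusted p = 0.0973), with the authors' library constant as library size (0.548), and without deletion replicate 1 (0.0563), deletion replicate 2 (0.192) or wild-type replicate 2 (0.123). Over all 13, the adjusted p ranged from 0.00190 to 0.548.

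LSC1 (YOR142W, chrXV:593057-594046, 1 exon), which encodes the alpha subunit of the same enzyme, had 93.3 and 111 CPM in the deletion, against 80.4 and 88.5 CPM in wild type. It lay on the same side as LSC2 in both deletion libraries but did not pass (log2 fold change 0.26 ± 0.13, adjusted p = 0.272). LSC2 had 0.923 and 0.848 reads per LSC1 read in the deletion, against 0.847 and 0.667 in wild type. The mean log2 ratio was -0.18 ± 0.086 in the deletion and -0.41 ± 0.24 in wild type. The difference of 0.24 had an exact permutation p of 0.333, the smallest possible, and deletion replicate 2 and wild-type replicate 1 nearly coincided, so the subunits were not shown to change unequally. Leaving out wild-type replicate 2 made the difference 0.064, and leaving out replicate 1 made it 0.41. On the chromosome the 3′ neighbour of LSC2, at 259 bases, is MPC3, a mitochondrial pyruvate carrier gene, with 3 and 2 reads in the deletion and 3 and 1 in wild type. The 5′ neighbour SDA1, a gene of ribosome biogenesis, had a log2 fold change of -0.0048 ± 0.13.

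The last enzymes of the cycle encoded by these genes lay slightly lower in the deletion, without passing the test. FUM1 (YPL262W, chrXVI:47336-48802, 1 exon), which encodes fumarase of both mitochondria and cytosol, had 96.1 and 106.5 CPM in the deletion, against 106.1 and 140 CPM in wild type. The groups overlapped by a narrow margin, and the log2 fold change was -0.30 ± 0.13 (adjusted p = 0.210). It was -0.47 and passed when wild-type replicate 1 was left out (adjusted p = 0.00815), and -0.066 when replicate 2 was, so its size rests on the wild-type libraries. MDH1 (YKL085W, chrXI:279123-280127, 1 exon), the mitochondrial malate dehydrogenase gene, had 119.6 and 127 CPM in the deletion and 129.8 and 137 CPM in wild type, with no overlap and a log2 fold change of -0.12 ± 0.11 (adjusted p = 0.602).

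**Figure D3:**
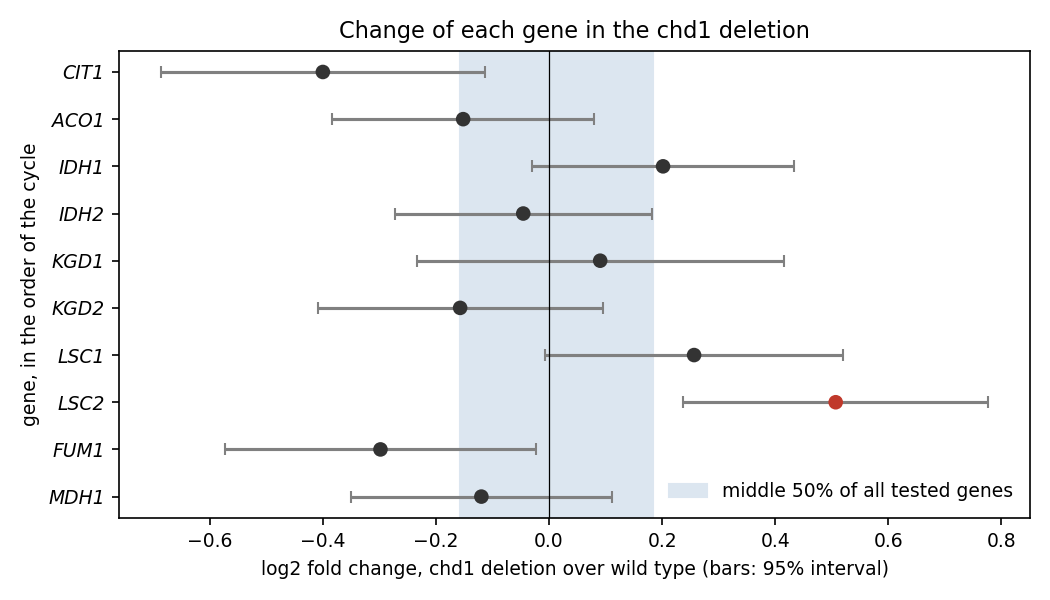
Log2 fold change of each gene, deletion over wild type, with its 95% interval from edgeR (bars), beside the middle 50% of all 5488 tested genes (band, -0.16 to 0.18). LSC2 (red) is the one gene past the adjusted test, and the intervals of CIT1 and FUM1 also lie on 1 side of 0.

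At an unadjusted p under 0.05 stood 3 of the 10 genes, CIT1, LSC2 and FUM1, beside 19.6% of all genes tested. The genotypes did not overlap for 3 genes that were higher (IDH1, LSC1 and LSC2) and 3 that were lower (CIT1, KGD2 and MDH1), beside 24.9% and 24.4% of all genes tested. DESeq2 called 0 of the 10, beside 159 of 5488 genes over the whole table. The log2 fold changes of the 8 genes with an upstream CCAAT ran from -0.40 to 0.20, and those of LSC1 and LSC2, which lack it, were 0.26 and 0.51. This ordering was seen after the values were known and was not tested.

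Related genes can share reads where their sequences are alike, and how such reads were counted is not given in the sources used here. The longest run shared by the coding sequences of CIT1 and CIT2, which encode the mitochondrial and the peroxisomal citrate synthase, was 21 bases, and it is shown as the longest exact match of a cycle gene to an isozyme gene that fell. Reads aligned with mismatches could also fit both genes, which was not tested.
CIT1 and CIT2: tatggtggtatgagaggtatt
It lies at bases 241 to 261 of the CIT1 coding sequence. The longest run was 14 bases between MDH1 and MDH2, 14 bases between CIT1 and CIT3, and 11 bases each between IDH1 and IDH2, between MDH1 and MDH3, and between KGD2 and LAT1. LSC1 and LSC2 shared at most 10 bases in a row.

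Of 58 other genes of the pathway in 6 lists, 53 were tested; 1 was higher, 3 were lower and 49 did not pass, with a median log2 fold change of 0.065. These counts stand beside 1.68% higher and 3.06% lower over all genes tested, and shares this near the background are no result about the lists. DESeq2 called 0 of them higher and 1 lower, PYC2. It gave no adjusted p to some of them, CIT2 included, and these are counted as not called. CIT3, SHH3, MPC3, SFC1 and HAP2 did not pass the filter on low counts. Among the other genes of the mitochondrial cycle 0 of 10 passed in either direction in edgeR or in DESeq2. In edgeR 3 of them had an unadjusted p under 0.05, beside 19.6% of all genes tested. The 10 include the 4 subunits of succinate dehydrogenase, the enzyme between Lsc1-Lsc2 and Fum1. SDH2, its iron-sulfur subunit gene, had 60.96 and 75.5 CPM in the deletion, against 53.3 and 50.7 CPM in wild type (log2 fold change 0.38 ± 0.14, adjusted p = 0.140). IDP1, the mitochondrial NADP-dependent isocitrate dehydrogenase gene, had 234 and 219.6 CPM in the deletion, against 289.6 and 277 CPM in wild type (-0.32 ± 0.10, adjusted p = 0.0794).

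Of 5 isozyme genes outside the mitochondrion, 2 were called lower and 3 did not pass, beside 3.06% lower over all genes tested. The list was chosen with earlier results of these data known, so this count is no result about the isozymes. CIT2 had 23.5 and 16.8 CPM in the deletion, against 44.9 and 35.97 CPM in wild type, with no overlap (-0.94 ± 0.19, adjusted p = 0.00625). MDH2, the cytosolic malate dehydrogenase gene, had 125 and 129 CPM in the deletion, against 155 and 179 CPM in wild type (-0.40 ± 0.11, adjusted p = 0.0460), and lost its call under 8 of 13 alternatives. CIT2 and CIT1 both had lower values in the deletion, but only CIT2 passed, and the difference between them was not tested.

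Of 12 tested genes for the entry of pyruvate, 1 fell and 11 did not pass, beside 3.06% lower over all genes tested. PYC2, one of the pyruvate carboxylase genes that replenish oxaloacetate, had 277 and 288 CPM in the deletion, against 387 and 396 CPM in wild type (-0.47 ± 0.10, adjusted p = 0.00812). Without deletion replicate 1 or 2 its adjusted p was 0.128 or 0.0510, and with the authors' library constant 0.602. Its isozyme gene PYC1 had 79.3 and 89.6 CPM in the deletion and 66.1 and 65.1 CPM in wild type (0.36 ± 0.13, adjusted p = 0.115). The subunit genes of pyruvate dehydrogenase, PDA1, PDB1, LAT1 and PDX1, had log2 fold changes of -0.095, -0.10, -0.010 and -0.13.

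Of 8 tested regulators, 1 rose and 7 did not pass, beside 1.68% higher over all genes tested. HAP4, which encodes the activator subunit of the HAP complex, had 88.9 and 80.3 CPM in the deletion, against 57.7 and 57.2 CPM in wild type (0.57 ± 0.13, adjusted p = 0.0149). Its call was lost with DESeq2 (adjusted p = 0.0608), with the authors' library constant (0.455) and without deletion replicate 1 (0.177). HAP1, a haem-responsive activator gene that carries a Ty1 insertion in this strain lineage, had 311 and 325 CPM in the deletion, against 256 and 242 CPM in wild type (0.35 ± 0.10, adjusted p = 0.0531), and passed under 6 of 13 alternatives. The retrograde genes RTG1, RTG2 and RTG3 had log2 fold changes of 0.12, 0.10 and 0.065 and did not pass. Of the 8 cycle genes with an upstream CCAAT, which 62.8% of all windows held, 6 had log2 fold changes below 0. IDH2 and MDH1 are among these 6, and their sign depends on the scaling as given above. Any relation between the HAP4 values and those of the cycle genes was not tested.

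Of 7 tested carriers of cycle intermediates and 11 genes of cofactor attachment and assembly, 0 passed in edgeR. At an unadjusted p under 0.05 in edgeR stood 1 and 0 of them, beside 19.6% of all genes tested. DESeq2 called 0 of the carrier and assembly genes to which it gave an adjusted p. Those left without one include CTP1, TCM62 and ISA1, and genes of these lists not named here were not checked for it. In edgeR CTP1, the mitochondrial citrate carrier gene, came closest (0.68 ± 0.19, adjusted p = 0.0530). It had 26.8 and 29.9 CPM in the deletion and 19.2 and 16.2 CPM in wild type. It passed under 7 of the 12 alternatives that gave it an adjusted p. DIC1, the dicarboxylate carrier gene, had a log2 fold change of 0.22, TCM62 one of 0.36 and the iron-sulfur gene ISA1 one of 0.22.

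**Figure D4:**
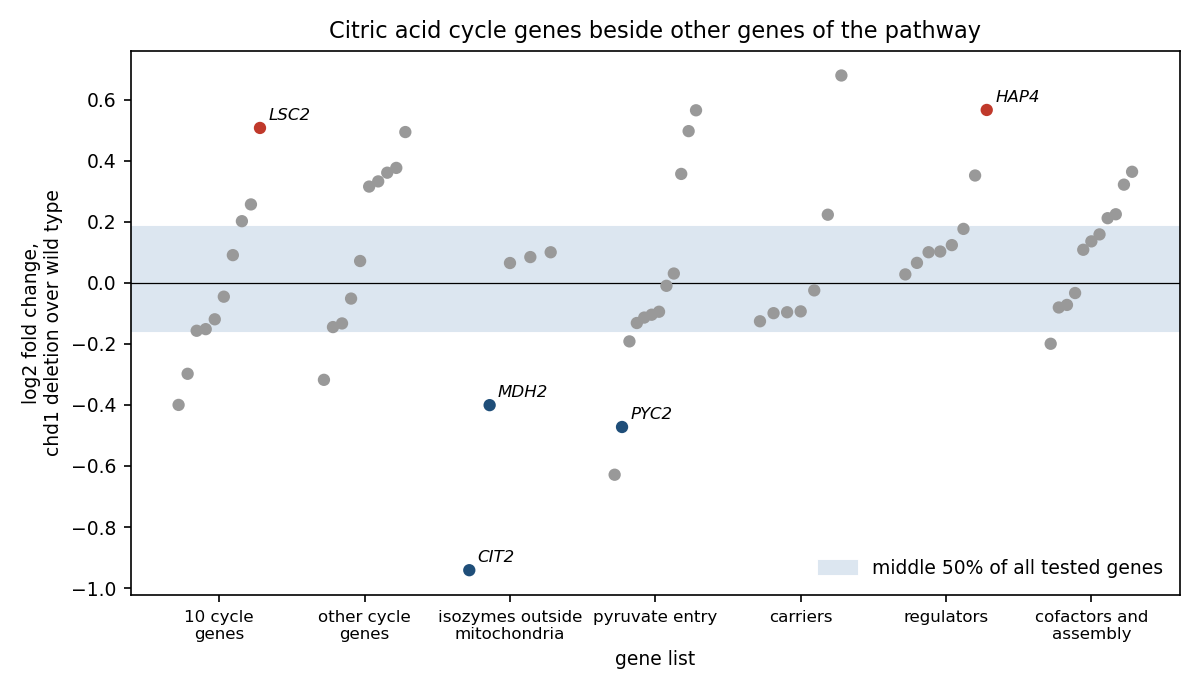
Log2 fold change, deletion over wild type, of the 10 cycle genes and of the tested genes of 6 further lists, 1 point per gene, with the middle 50% of all tested genes as a band. LSC2 and HAP4 are the genes called higher (red) and CIT2, MDH2 and PYC2 those called lower (blue).

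Some genes known for repression by glucose also differed between the genotypes. Of 14 tested, 4 rose, 0 fell and 10 did not pass, beside 1.68% higher and 3.06% lower over all genes tested. The 4 were CAT2 (1.82 ± 0.41), HXK1 (1.23 ± 0.20), HXT6 (0.99 ± 0.12) and HXT7 (0.99 ± 0.12). HXT6 and HXT7 are near-identical in sequence, so their calls may not be separate. The list was chosen with earlier results of these data known, so this count is no result about genes repressed by glucose. CAT2 rests on 34 and 18 reads in the deletion and 5 and 5 in wild type, and its call was lost without deletion replicate 1 and without wild-type replicate 2. The summed level of the list was 1486 and 1841 CPM in the deletion, against 1325 and 1225 CPM in wild type, and each of its 15 genes had reads in every library. Much of this difference lay in HXT6 (311 and 396 CPM in the deletion, 183 and 172 in wild type) and HXT7 (333 and 422, against 196 and 183). Without HXT6, HXT7 and ADH2 the sum was 248 and 335 CPM in the deletion, against 200 and 212 CPM in wild type. Much of this remaining difference lay in HXK1, at 84.2 and 142 CPM in the deletion, far apart, against 51.8 and 43.2 CPM in wild type. Of the 14 tested genes of the list, 9 had log2 fold changes above 0 and 5 below. The list is led by ADH2, at 593 and 688 CPM in the deletion and 746 and 659 CPM in wild type, whose reads may be shared with its close relative ADH1. FBP1 and PCK1, defining genes of growth without glucose, stayed at or below 10.8 CPM in every library. The part of these differences in the LSC2 and HAP4 values was not tested.

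**Figure D5:**
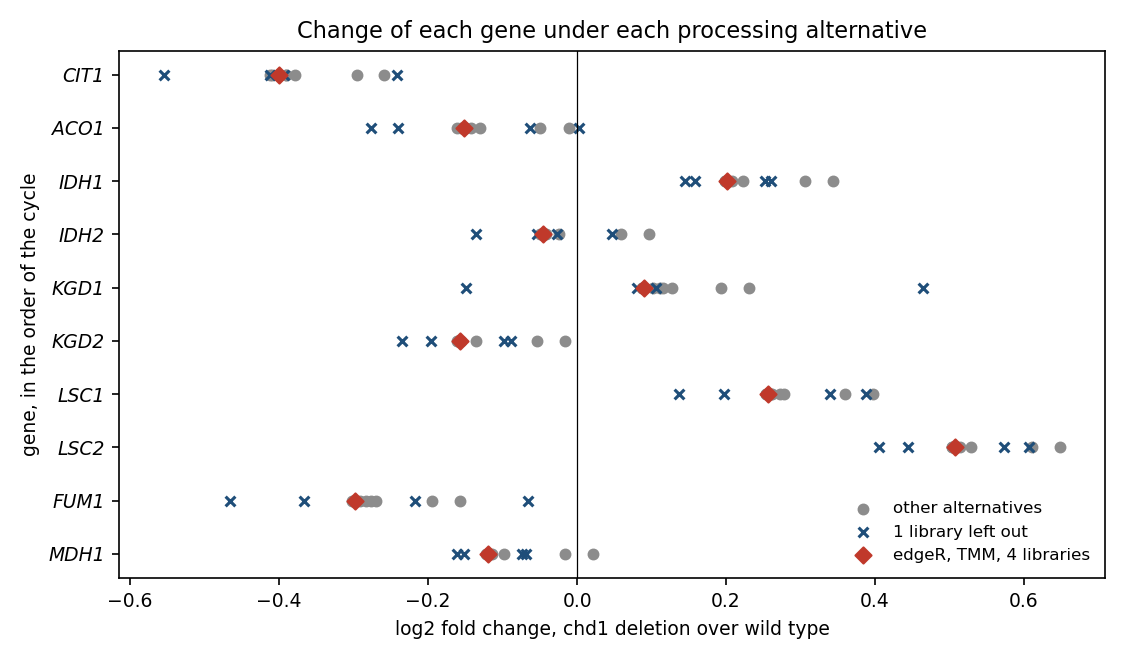
Log2 fold change of each gene, deletion over wild type, with all 4 libraries and TMM scaling (red diamond), with 1 library left out (blue crosses) and under the other alternatives (grey points). LSC2, LSC1 and IDH1 stay above 0 and CIT1, FUM1 and KGD2 below 0 throughout, while ACO1, IDH2, KGD1 and MDH1 cross 0.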

How the data were processed

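The authors' gene table of each library holds whole-number read counts, the length of each gene and a normalized value, as deposited and per the file headers. That deposited signal equals the count divided by the length and by 1 constant per library (13.98 to 25.11 in units of 1e6 reads); it served only to recover that constant. CASAVA 1.8, TopHat and the build sacCer3 were used, per the submitters' processing notes; how reads were counted, with which annotation and whether by strand, is not given in the sources used here. The other columns hold gene lengths. Intron tables were not used.

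Counts were tested with edgeR 4.0.16 in R 4.3.3 on the whole table (glmQLFit and glmQLFTest, TMM, filterByExpr minimum count 10, genotype as the only term, Benjamini-Hochberg adjustment over 5488 genes, threshold 0.05). Standard errors are the log2 fold change over the square root of F. The edgeR p-values, standard errors and intervals use a variance moderated across genes, with 17.8 degrees of freedom. They therefore rest only in part on the spread of each gene's own libraries. The fit was tested on simulated data. CPM use TMM-scaled libraries, and lengths are those of the tables, which exceed coding lengths by 5 to 532 bases for the 10 genes. DESeq2 1.42.0 and limma 3.58.1 (voom) were alternatives. Replicate libraries differed beyond counting noise (chi-square per degree of freedom 2.46 in the deletion, 6.08 in wild type). Gene reads were 14.9% to 18.2% of the authors' constant.

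The 10 genes and the lists were chosen with earlier results of these data known. By the naming rule the text gives all 10 genes, and of each pathway list the genes past the threshold and the 2 of lowest p; neighbours, isozymes and further subunits were named besides.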

Additional observations from a re-analysis of the deposited data

How the results depend on the processing

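Of the 10 genes, 1 was higher and 0 lower with all 4 libraries and TMM, beside 1.68% higher and 3.06% lower over all genes tested. The number higher was 0 with DESeq2 and with the authors' library constant, and 0 to 1 with 1 library left out. The number lower was 1 (CIT1) with the replicate block and 0 to 1 with 1 library left out. The median of the 10 was 0.059 with total counts without genes overlapping ribosomal RNA, a scaling that moved the median of all genes to 0.15. That scaling turned IDH2 to 0.096 and MDH1 to 0.022, and total gene counts turned IDH2 to 0.059. With 1 library left out, IDH2 ranged from -0.14 to 0.047, KGD1 from -0.15 to 0.46 and ACO1 from -0.28 to 0.0032. None of these reversed values passed. The share of reads differed by -0.00068 percentage points with the authors' constant as denominator, a reversal, and by -0.0029 to 0.0151 with 1 library left out.

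Genes called over the whole table numbered 62 with the authors' constant, 159 with DESeq2, 424 with the replicate block and 133 to 577 with 1 library left out. Pathway genes called higher numbered 4 with total gene counts, 6 without genes overlapping ribosomal RNA, 0 with the authors' constant and with DESeq2, 2 with RLE factors, limma-voom or no filter, 3 with a minimum count of 50 or the replicate block, and 0 to 5 with 1 library left out. Those lower numbered 1 with the authors' constant and with DESeq2, and 1 to 3 with 1 library left out. The causes were not tested. Same-numbered libraries did not deviate together (r = 0.014 across genes), so the block rests on a shared number alone. A fit that leaves out 1 library assumes that the lone sample varies like the other genotype. The 10 genes had 110 to 1505 reads per gene and library, and replicates differed beyond counting noise, so depth alone does not set the precision.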
